A study of Homo sapiens with 6 samples.

Results

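The siRNAs described here target subunits of heterotrimeric G proteins and 3 guanine nucleotide exchange factors, screened in SUM149PT cells with and without eicosapentaenoic acid (EPA). They were taken from the screen by gene symbol: every library well whose symbol begins with GNA, GNB, GNG or ADCY, with RAPGEF3, RAPGEF4 and RASGRF2 added. This gave 19 of the 939 library wells, 16 from a GPCR library and 3 from a kinome library, each holding a reagent against a different gene. By role they are 11 alpha subunits, 3 beta subunits, 1 gamma subunit, 3 exchange factors and 1 receptor. Of the 19, 0 target an adenylyl cyclase: the prefix ADCY took only ADCYAP1R1, a receptor for the neuropeptide PACAP, which is therefore described apart.

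A heterotrimeric G protein carries the signal of a seven-pass receptor into the cell. The activated receptor loads the alpha subunit with GTP, and alpha and the beta-gamma dimer then act on separate effectors: Gs alpha subunits stimulate adenylyl cyclase, Gi/o subunits mostly inhibit it, and Gq subunits activate phospholipase C-beta. Cyclic AMP made by adenylyl cyclase activates protein kinase A and also the Rap exchange factors encoded by RAPGEF3 and RAPGEF4.

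SUM149PT is a cell line derived from an inflammatory breast cancer of the triple-negative type, and EPA is an omega-3 polyunsaturated fatty acid. In both groups 750 cells per condition were reverse-transfected with siRNA at 45 nM and kept for 48 hours; the EPA-treated group then received 50 µM EPA for 72 hours, and the other is named only as untreated. There were 3 EPA-treated samples, called replicates 4 to 6 here, and 3 untreated samples, called replicates 1 to 3, all from 1 cell line. The readout was fluorescence from resazurin, a dye that metabolically active cells convert into a fluorescent form, so neither the level of any target nor its knockdown was measured. A weaker signal can come from fewer cells or from less conversion per cell, which cannot be told apart here. Whether the samples were grown as separate cultures is not stated in the sources used here; the spread behind each p-value may therefore be technical.

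Values are raw fluorescence units per well. The signal left with EPA is the EPA-treated mean over the untreated mean, in percent, with the SE propagated from 3 samples in each group. A relative value is the log2 of a well over the median library well of its plate, taken sample by sample, and the EPA difference is the relative value with EPA minus that without it. A negative difference means that the well lost more of its signal than the median signal of the library wells of its plate. The median difference over all library wells was 0.20, so 0 is not the difference of the typical siRNA. Differences were therefore also centred on the median siRNA difference of each plate. Differences were tested with limma over all 939 library wells, with Benjamini-Hochberg adjustment and a threshold of 0.05.

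The wells beside which these values are read were themselves lowered by EPA. The median of OTP3 wells, the negative control siRNA, was 21951 ± 4049 units with EPA and 49147 ± 1644 units untreated, so 44.7% ± 4.83 (SE) was left. Wells of cells alone kept 42.3% ± 3.48 and the median of the library wells 59.0% ± 3.94. In each of these 3 kinds of well no EPA-treated sample reached the lowest untreated one (two-sided exact permutation p = 0.1, which is the floor for 3 against 3). Blank wells read 3926 ± 36.7 units with EPA and 3787 ± 19.2 untreated (SD, n = 3 each, medians over wells).

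Plate position matters for these siRNAs more than for the library as a whole. Wells in rows 1 and 16 and in column 24, called edge wells here, make up 16.9% of the library wells and 68.4% of the G-protein wells (13 of 19). On plate 3, GNAO1, GNAQ, GNAS, GNAT1, GNAT2, GNAZ, GNB1, GNB3, GNB4 and GNG11 share row 16, and GNA13, GNA14, GNA15, GNAI1 and GNAI3 share row 14. EPA lowered the signal unequally in these rows. The 2 wells of cells alone kept 78.6% and 83.6% in row 16 of plate 3, against 42.0% and 49.1% in row 14, and the other library wells had a median of 94.8% left in row 16 (10 wells) and 69.1% in row 14 (15 wells). Results are therefore given also relative to the plate row or after median polish, which removes the common level of each plate row and column.

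In the comparison of EPA-treated with untreated cells 7 of the 19 siRNAs had a lower relative signal with EPA and 7 a higher one. Lower calls were 36.8% of these siRNAs against 15.2% of all library wells, and higher calls 36.8% against 29.0%. Median polish gave 7 lower and 2 higher, against 14.8% and 16.3% of all library wells. Without median polish, leaving out untreated replicate 1, untreated replicate 3 or EPA-treated replicate 6 gave 4 lower calls (21.1%). The shares of all library wells there were 13.4%, 13.2% and 13.7%, in that order. The lower siRNAs after median polish were GNAI1, GNAZ, GNAT2, GNA13, GNA15, GNB1 and ADCYAP1R1, and the higher ones GNA14 and GNAS. Centred on OTP3, which moved the median library well to 0.63, 3 were lower and 10 higher, against 6.28% and 58.1% of all. Centred on the median siRNA difference of each plate, 8 were lower and 5 higher, against 20.7% and 14.0%. Among the 6 wells away from the edge 5 were lower and 1 higher, against 17.1% and 23.6% of the 780 library wells there. The members were picked with earlier results of these data known, so these counts are a description.

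Relative to the plate the siRNAs against Gi/o alpha subunits did not move together: GNAI1, GNAZ and GNAT2 were lower with EPA, GNAO1 and GNAT1 higher, and GNAI3 did not pass. Centred on the other library wells of each row all 6 lay below 0, between -1.63 and -0.18. There 4 were lower, against 15.4% of all library wells. After median polish 3 were lower, against 14.8%, and the highest of the 6 stood at 0.20. GNAI1 (locus 2770) encodes an alpha subunit that inhibits adenylyl cyclase. Its well read 9662, 9155 and 8694 units with EPA, against 33054, 29430 and 32787 units untreated. The groups were far apart, and 28.9% ± 1.38 of the signal was left, the third lowest of the 20 library wells in row 14. The EPA difference was -0.98 (SE 0.135, adjusted p = 0.000766), and it passed in 17 alternative settings, between -1.44 and -0.59, but not against neighbouring wells without siRNA (-0.15, described after GNA13).

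GNAZ (locus 2781) encodes a Gi/o subunit that resists pertussis toxin. Its well read 15237, 11192 and 8903 units with EPA, against 34645, 35276 and 38958 units untreated. All EPA-treated values lay below all untreated ones, although the well is in row 16, where most wells kept their signal. With 32.5% ± 5.24 left it was the second lowest of the 20 library wells in that row. Against the library median GNAZ stood at 0.008 with EPA, which did not pass (adjusted p = 0.954). Untreated it was higher than the library, at 0.85 (adjusted p = 0.000126). The difference was -0.85 (SE 0.170, adjusted p = 0.00379), -1.20 after median polish and -1.45 centred on the row median; it failed in 1 of 17 settings, OTP3 centring (-0.46, adjusted p = 0.0601).

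GNAT2 (locus 2780) encodes the transducin alpha subunit of cone photoreceptors. Its well, also in row 16, read 14969, 8512 and 6298 units with EPA, against 26295, 23659 and 32118 units untreated. The EPA-treated samples spread widely, and on the relative scale replicate 4 (0.31) overlapped the untreated samples (0.30 to 0.64). Signal left was 36.3% ± 10.1, the third lowest in the row. Against the library median GNAT2 stood at -0.30 with EPA, which did not pass (adjusted p = 0.148). Untreated it was higher than the library, at 0.44 (adjusted p = 0.0477). The difference of -0.73 (SE 0.249, adjusted p = 0.037) passed in 9 of 17 settings. Median polish gave -1.56, more than 1.5 times as far from 0. Leaving out any sample other than EPA-treated replicate 4 ended the call (adjusted p 0.0602 to 0.127), as did blank subtraction (-1.12) and OTP3 centring (-0.35).

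GNAI3 (locus 2773), a close relative of GNAI1, sits in column 24 of row 14. Its well read 10280, 9849 and 10398 units with EPA, against 22764, 18251 and 30014 units untreated, with 43.0% ± 6.26 left. The untreated samples were the variable ones, and the difference of -0.38 (SE 0.181) did not pass (adjusted p = 0.114). It passed centred on the median siRNA difference (-0.64) and on the other library wells of the row (-0.75), and not after median polish (-0.32).

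GNAO1 (locus 2775), the Go subunit abundant in neurons, read 25838, 26803 and 26949 units with EPA, against 28300, 37296 and 36703 units untreated. GNAT1 (locus 2779), the transducin subunit of rods, read 29253, 28154 and 25866 units with EPA, against 35557, 26977 and 34221 units untreated. Both lost little signal, with 77.8% ± 6.71 left for GNAO1 and 86.1% ± 7.76 for GNAT1, and both sit in row 16. Relative to the plate they were higher with EPA, by 0.46 for GNAO1 (SE 0.166, adjusted p = 0.0464) and 0.60 for GNAT1 (SE 0.112, adjusted p = 0.0026). Neither was higher than its row: centred on the row median they stood at -0.15 and -0.0027, and after median polish at 0.20 and -0.16, and none of these 4 values passed. Leaving out any 1 sample except untreated replicate 2 ended the GNAO1 call as well. Centred on the median siRNA difference GNAO1 stood at 0.20 and did not pass (adjusted p = 0.374), while GNAT1 passed at 0.34 (adjusted p = 0.038).

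GNA13 (locus 10672) is the only alpha subunit of the G12 family among the members. Its well read 8506, 7020 and 6776 units with EPA, against 30906, 23461 and 25176 units untreated. No EPA-treated value came near an untreated one, and the 28.0% ± 3.13 left was the lowest share of the 20 library wells in row 14. The mean with EPA lay under 2 times the blank level. The difference was -1.02 (SE 0.155, adjusted p = 0.00113) and passed in 17 alternatives, the setting of the next paragraph not among them. Blank subtraction moved it to -1.59 and median polish to -0.61, both by more than 1.5 times.

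Wells without any siRNA lie around row 14 and lost about as large a share of their signal as GNA13 and GNAI1. Their level was higher: the median of all 21 such wells was 14677 ± 738 units with EPA and 44875 ± 2847 units untreated. In the 18 such wells of rows 13 and 15 of plate 3, column 24 left out, the signal left had a median of 32.1%, between 21.7% and 53.1%. With plate 3 centred on those wells, a setting chosen after seeing the data, GNA13 stood at -0.19 (SE 0.169, adjusted p = 0.348) and GNAI1 at -0.15 (SE 0.151, adjusted p = 0.402), and neither passed. In that setting GNAI3 (0.45, adjusted p = 0.0725) and GNA15 (0.21, adjusted p = 0.474) were above 0 and did not pass either. GNAI3 lies in column 24, unlike the wells it is set against there. With column 24 included, the share left in wells without siRNA reached 62.8% in row 13 and 90.3% in row 15. Centred on OTP3, GNA13 passed at -0.63 and GNAI1 at -0.59.

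The 3 Gq subunits, which activate phospholipase C-beta, gave 1 lower, 1 higher and 1 siRNA that did not pass. GNA14 (locus 9630) read 16928, 14476 and 13206 units with EPA, against 16757, 16300 and 14869 units untreated. The groups overlapped in raw units, and 93.1% ± 7.60 of the signal was left. Relative to the plate GNA14 was higher with EPA by 0.70 (SE 0.154, adjusted p = 0.00541), with no overlap on that scale. The well is not at an edge, and 16 of 17 alternatives kept the call, median polish at 0.50 among them. Centred on the other library wells of its row it did not pass (0.33, adjusted p = 0.119), and against the neighbouring wells without siRNA it stood at 1.53 (adjusted p = 3.44e-05).

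GNA15 (locus 2769), a subunit best known from blood cells, read 9273, 9089 and 4983 units with EPA, against 23791, 16527 and 20674 units untreated. The EPA-treated values were all lower, with replicate 6 near the blank level. The share left was 38.3% ± 7.95, the fourth lowest in row 14. The difference of -0.61 (SE 0.207, adjusted p = 0.0362) passed in 8 of 17 alternatives, median polish (-0.56) among them, and had the opposite sign against the wells without siRNA (0.21). Leaving out EPA-treated replicate 6 reduced it to -0.39 (adjusted p = 0.11), and leaving out any of the 3 untreated samples also ended the call. Blank subtraction gave -1.26, which did not pass, and OTP3 centring -0.22.

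GNAQ (locus 2776) read 32646, 29282 and 10138 units with EPA, against 32149, 24986 and 24484 units untreated. EPA-treated replicate 6 stands apart from the other EPA-treated wells and made the difference of 0.47 imprecise (SE 0.325, adjusted p = 0.261). Without that sample GNAQ stood at 0.94 and passed (adjusted p = 0.00471). After median polish of all samples it stood at -0.04.

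GNAS (locus 2778) encodes the alpha subunit of Gs, which stimulates adenylyl cyclase. Its well read 27415, 23323 and 22448 units with EPA, against 26266, 24619 and 31572 units untreated. The groups overlapped in raw units, with 88.8% ± 8.77 left. Relative to the plate the well was higher with EPA by 0.64 (SE 0.131, adjusted p = 0.00405), and median polish left it at 0.53. Against its own row 16 there was no difference to call, at 0.04 from the row median.

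Of the 3 beta subunits, which carry the signal of the beta-gamma dimer, 1 passed. GNB4 (locus 59345) read 38666, 23459 and 25732 units with EPA, against 23000, 22200 and 29018 units untreated. The mean was higher with EPA (118% ± 21.7 left, the highest share of the 20 library wells in row 16), but the groups overlapped in raw units. The relative difference was 1.03 (SE 0.183, adjusted p = 0.0022). It fell below the threshold after median polish (0.19) and after centring on the row median (0.42).

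GNB1 (locus 2782) read 38702, 21719 and 29854 units with EPA, against 34498, 30313 and 43980 units untreated. GNB3 (locus 2784) read 26220, 17827 and 8200 units with EPA, against 21524, 18830 and 28495 units untreated. In both wells the groups overlapped, and the differences of 0.52 for GNB1 (adjusted p = 0.0632) and 0.28 for GNB3 (adjusted p = 0.489) did not pass. GNB1 turned to -0.44 after median polish and passed there as lower (adjusted p = 0.0446). With all samples it passed as higher after blank subtraction (0.77, adjusted p = 0.0297) and centred on OTP3 (0.91, adjusted p = 0.000444). Without untreated replicate 3 or EPA-treated replicate 5 it also passed as higher (0.65 and 0.77). In all, 2 of 17 alternatives called GNB1 lower and 5 higher. Without EPA-treated replicate 6, which had the lowest reading of GNB3, that siRNA stood at 0.68 and passed (adjusted p = 0.0412), while median polish of all samples gave -0.43, which did not pass.

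GNG11 (locus 2791), the only gamma subunit, pairs with beta subunits and anchors the dimer to the membrane through a lipid. It sits in the corner of plate 3, at row 16 and column 24, and read 26309, 19291 and 20986 units with EPA, against 27509, 34477 and 32299 units untreated. The raw values did not overlap and 70.6% ± 8.16 was left, the sixth lowest share in the row. The relative difference was 0.30 (SE 0.170, adjusted p = 0.171). Of 17 alternatives 1 called it lower and 1 higher. Centred on the other library wells of the row, a setting chosen after seeing the data, it was lower, at -0.48 (adjusted p = 0.0203). From the row median it stood at -0.30 and did not pass. Centred on OTP3 it was higher, at 0.69 (adjusted p = 0.00349). After median polish it stood at -0.41 and did not pass.

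The exchange factors lay in 3 different plate contexts. RAPGEF3 (locus 10411), which encodes the cyclic AMP sensor Epac1, read 6705, 6353 and 6136 units with EPA, against 19674, 12573 and 13785 units untreated. This was the lowest signal of the 19 in both groups, and the lowest with EPA of the 20 library wells in row 14 of plate 1. With EPA it lay under 2 times the blank level, so its difference of -0.55 (SE 0.190, adjusted p = 0.0391) grew to -1.29 after blank subtraction. Blank subtraction kept the call, while median polish (-0.44) and OTP3 centring (-0.16) did not. Leaving out any sample except untreated replicate 2 ended it, with adjusted p from 0.0524 to 0.11.

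RAPGEF4 (locus 11069), which encodes the related Epac2, read 47900, 36003 and 43551 units with EPA, against 47998, 47983 and 53514 units untreated. The raw values were high in both groups, and 85.3% ± 7.65 was left, beside a median of 86.0% for the 19 other library wells of row 1 on plate 1. The relative difference of 0.45 (SE 0.120, adjusted p = 0.0134) became 0.05 after median polish and -0.10 from the row median, and neither of the last 2 passed. The call was also lost without untreated replicate 2 (adjusted p = 0.0518) and centred on the median siRNA difference (0.30, adjusted p = 0.0721). RASGRF2 (locus 5924), an exchange factor for Ras and Rac, read 58638, 50840 and 61816 units with EPA, against 59555, 52054 and 51108 units untreated. No signal was lost on average (105% ± 7.94 left), the highest share among the 20 library wells in row 16 of plate 2. Its difference of 0.81 (SE 0.15, adjusted p = 0.00264) was 0.45 from the row median, which passed, and -0.04 after median polish, which did not. RASGRF2 sits in a plate corner, in column 24, and row centring does not remove the level of a column.

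ADCYAP1R1 (locus 117), the receptor the prefix took, couples mainly to Gs. Its well on row 2 of plate 3 read 12049, 9494 and 8614 units with EPA, against 41483, 32746 and 42071 units untreated. The groups lay far apart. Only 25.9% ± 3.34 was left, the lowest share of the 20 library wells in its row, where the other 19 had a median of 70.9% and the 2 wells of cells alone kept 49.7% and 72.5%. The difference of -1.14 (SE 0.144, adjusted p = 0.000542) was the lowest of the 19 siRNAs and passed in all 17 alternatives, between -1.42 and -0.75. Against the library median ADCYAP1R1 stood at -0.20 with EPA, which did not pass (adjusted p = 0.0988). Untreated it was higher than the library, at 0.94 (adjusted p = 1.98e-05).

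Seen by role, the lower calls were in alpha subunits (5 of 11), 1 of the 3 exchange factors and the receptor. Of the 4 beta and gamma subunits 0 were lower in limma's test (also 0 at an unadjusted p under 0.05). The higher calls were in 4 alpha subunits, 1 beta subunit and 2 exchange factors. Of all library wells 15.2% were lower and 29.0% higher. The median difference was -0.38 over the alpha subunits, 0.52 over the beta subunits and 0.45 over the exchange factors, beside 0.20 over all library wells. Within the alpha subunits it was -0.56 for the 6 of the Gi/o family and 0.47 for the 3 of the Gq family. Single samples moved some of these medians by more than 1.5 times: the alpha median was -0.21 without untreated replicate 3, and the Gq median 0.20, 0.27 and 0.72 without EPA-treated replicate 4, 5 and 6 in turn. All 4 beta and gamma wells lie in row 16, as do 6 of the 11 alpha wells. Centred on the other library wells of each row the medians were -0.75 for alpha, -0.26 for beta, -0.48 for the gamma subunit and -0.08 for the exchange factors, beside 0.09 over all. There 8 siRNAs were lower, 6 alpha subunits, GNG11 and ADCYAP1R1, and 1 was higher, RASGRF2, against 15.4% and 19.7% of all library wells. That centring was chosen after seeing the data. With the row median 6 were lower and 2 higher, against 14.7% and 19.9%. After median polish the order changed. The medians were -0.32 for alpha, -0.43 for beta, -0.41 for the gamma subunit and -0.04 for the exchange factors, beside 0.07 over all. The lower calls there were 5 alpha subunits, GNB1 and the receptor, against 14.8% of all library wells. The higher ones were 2 alpha subunits, against 16.3%. The difference between roles was not tested, since siRNAs of a role are not replicates.

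In the EPA-treated cells alone, 4 of the 19 siRNAs were lower than the library median and 10 higher, or 21.1% and 52.6%, against 37.0% and 36.4% of all library wells. RAPGEF3 (-1.23), GNA13 (-0.63), GNA15 (-0.61) and GNAI1 (-0.32) were the lower ones. The highest were RASGRF2 (1.95), RAPGEF4 (1.49), GNB1 (1.36) and GNB4 (1.32), all in edge wells, followed by GNAT1 (1.28) and GNAO1 (1.21). After median polish the split turned to 9 lower and 2 higher, against 30.4% and 30.6% of all. The higher pair was GNAT1 (0.70) and RAPGEF4 (0.56), and RAPGEF3 was at -1.74, the lowest.

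In the untreated cells 2 siRNAs were lower than the library median and 12 higher, or 10.5% and 63.2%, against 35.6% and 33.9% of all library wells. The lower pair was RAPGEF3 (-0.68, SE 0.135, adjusted p = 0.00121) and GNA14 (-0.33, SE 0.109, adjusted p = 0.0201). Without untreated replicate 1 or 3 GNA14 did not pass (adjusted p = 0.0746 and 0.139). That left 1 lower siRNA, against 32.4% and 30.9% of all library wells. RASGRF2 (1.14), RAPGEF4 (1.05), ADCYAP1R1 (0.94) and GNAZ (0.85) were the highest. After median polish 5 were lower and 7 higher, against 27.6% and 26.5% of all, with RAPGEF3 at -1.29 and GNAT1 at 0.86 the extremes. These calls are relative to a library that itself read less than OTP3: centred on OTP3, which put the median library well at -1.13, 16 of the 19 were lower and 0 higher in limma's test (also 0 at an unadjusted p under 0.05), against 91.8% and 0.532% of all. RAPGEF3 was lower than the library in both groups, and in all 16 alternatives of each. Among these, a threshold of 0.1 could not end the call, and leaving out a sample of the other group left the value unchanged.

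Genes further along these pathways had calls in both directions in EPA-treated minus untreated. Of all library wells 15.2% were lower and 29.0% higher there. Of 6 measured subunits of protein kinase A (7 listed), the main cyclic AMP effector, 1 was lower (PRKAR2A, -0.81, adjusted p = 0.0407) and 1 higher (PRKAR2B, 0.52, adjusted p = 0.0392), with a list median of 0.09. Wells against the kinases that phosphorylate activated receptors gave 3 lower and 2 higher among 9, led by GRK1 (-1.04, adjusted p = 0.00136), GRK6 (-0.81) and ADRBK1 (0.72), whose 2 wells both passed as higher. Among 8 diacylglycerol-responsive kinases, which act after Gq, 2 were lower and 3 higher, with PRKD2 at -0.95, PRKCQ at -0.68 and PRKCA at 0.48 (adjusted p = 0.0278) and a list median of 0.03. PIK3CG, the phosphoinositide 3-kinase that beta-gamma activates, was higher at 1.05 (adjusted p = 0.000766). After median polish the counts of these lists were 1 and 1, 4 and 2, 2 and 1, against 14.8% and 16.3% of all library wells, with PIK3CG still higher at 0.68. With OTP3 centring they were 0 and 4, 1 and 3, 0 and 4 in limma's test (each 0 also at an unadjusted p under 0.05), against 6.28% and 58.1% of all, with PIK3CG at 1.57.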

How the data were processed

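Per the file headers, the authors deposited unprocessed fluorescence intensity for each well of 3 plate layouts; any further step on their side is not given in the sources used here. The 6 columns, all used, carry a group and a running number from 1 to 6, which does not tie a column to a numbered sample. Intensity was scaled, within each plate and sample, to the median of its library wells (939 in all) and taken to log2, with no filter. limma 3.58.1 in R 4.3.3 fitted 1 mean per group over all 6 samples with trend and robust variances, adjusted over all library wells. The fit was tested on simulated data. The 21 wells listed without a siRNA stayed out of the fit. All 19 symbols match the current RefSeq symbol of their locus identifier. The reagents' sequences were not used here.

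The members, roles and lists were chosen with earlier results of these data known. Every member is named; the genes further along the pathways are named by the largest moderated statistic. Alternatives were centring on OTP3, on plate-row medians and on the median difference, blank subtraction with a floor of 3 SDs, median polish, both together, quantile normalization, plain variances, thresholds of 0.01 and 0.1, and leaving out each sample. Row centring on non-members, counts without edge wells and centring on wells without siRNA were chosen after seeing the data. With 3 samples per group, and some wells near the blank level, precision is limited.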

Additional observations from a re-analysis of the deposited data

How the results depend on the processing

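Counts are given as lower and higher siRNAs of 19, or of 6 outside edge wells. Brackets give the share of library wells called in the same setting, among the 780 non-edge wells for counts outside edge wells. In EPA-treated minus untreated they were 3 lower with OTP3 centring (6.28%) and 4 lower at an adjusted p under 0.01 (10.3%). They were 2 higher with median polish (16.3%), with blank subtraction and median polish (13.7%) and with the row median (19.9%). They were 1 higher with the row median of non-members (19.7%) and outside edge wells (23.6%), and 3 higher with quantile normalization (19.4%). Against the library median with EPA they were 9 lower with OTP3 centring (64.6%) and 1 higher outside edge wells (27.7%). They were 9 and 2 with median polish (30.4% and 30.6%) and 8 and 3 with both corrections (31.0% and 30.2%). With the row median they were 9 and 1 (33.0% and 32.3%), and with that of non-members 10 and 2 (33.2% and 31.9%). Untreated they were 16 and 0 with OTP3 centring (91.8% and 0.532%) and 5 and 7 with median polish (27.6% and 26.5%). They were 5 and 5 with both corrections (23.3% and 22.9%). There were 7 higher with the row median (29.7%), 3 higher outside edge wells (26.7%) and 1 lower at 0.01 (29.0%). Leaving out 1 sample gave 4 to 6 lower (12.6% to 13.7%) and 6 to 8 higher (22.3% to 29.5%) in EPA-treated minus untreated. With EPA it gave 4 to 6 (34.5% to 36.8%) and 9 to 11 (34.0% to 36.2%). Untreated it gave 1 to 2 (30.9% to 36.3%) and 10 to 13 (29.8% to 34.9%). The 4 lower calls came without untreated replicate 1 (13.4%), untreated replicate 3 (13.2%) or EPA-treated replicate 6 (13.7%). The median of the library wells kept 50.4% after blank subtraction.

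For single siRNAs in EPA-treated minus untreated, 247 alternative values kept their call, or stayed uncalled with either sign, 54 kept the direction but lost the call and 11 gained one. The following siRNAs changed sign and were called in the main setting, in the alternative or in both. Sign changes without a call in either are not listed. The cause was not tested. With OTP3 centring, by construction of a higher zero: with EPA GNA14 (-0.41) and GNAZ (-0.77), and untreated RAPGEF4 (-0.035), ADCYAP1R1 (-0.23), GNA13 (-0.78), GNA15 (-1.17), GNAI1 (-0.51), GNAI3 (-0.96), GNAO1 (-0.42), GNAQ (-0.74), GNAS (-0.72), GNAT1 (-0.50), GNAT2 (-0.73), GNAZ (-0.32), GNB1 (-0.33), GNB3 (-0.998), GNB4 (-0.88) and GNG11 (-0.53). With median polish, in EPA-treated minus untreated RASGRF2 (-0.036), GNAT1 (-0.16) and GNB1 (-0.44), with EPA GNAQ (-0.10), GNAZ (-0.49), GNB1 (-0.018), GNB3 (-0.64), GNB4 (-0.062) and GNG11 (-0.97), and untreated GNAI3 (-0.74), GNAO1 (-0.0033), GNAS (-0.46) and GNG11 (-0.57). With both corrections, in the difference RASGRF2 (-0.15), GNAT1 (-0.040) and GNB1 (-0.56), with EPA RASGRF2 (-0.043), GNAQ (-0.079), GNB1 (-0.075), GNB3 (-0.89), GNB4 (-0.10) and GNG11 (-1.29), and untreated GNAI3 (-0.93), GNAO1 (-0.017), GNAS (-0.54) and GNG11 (-0.71). With the row median, in the difference RAPGEF4 (-0.10), GNAO1 (-0.15) and GNAT1 (-0.0027), with EPA GNAQ (-0.22), GNAS (-0.031), GNAZ (-1.11), GNB3 (-0.67) and GNG11 (-0.17), and untreated GNAS (-0.067) and GNAT2 (-0.077). With the row median of non-members, in the difference RAPGEF4 (-0.084), GNAO1 (-0.32), GNAS (-0.14), GNAT1 (-0.18) and GNG11 (-0.48), with EPA GNA14 (-0.089), GNAO1 (-0.017), GNAQ (-0.33), GNAS (-0.14), GNAZ (-1.22), GNB3 (-0.78) and GNG11 (-0.29), and untreated GNAS (-3.9e-06) and GNAT2 (-0.010). RAPGEF4 stood at -0.034 with quantile normalization, and GNA15 at 0.21 against wells without siRNA.

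No paired analysis was possible because the columns are numbered 1 to 6 through both groups and carry no number shared between them. Wells near the blank level, such as RAPGEF3 and GNA13 with EPA, limit how far a loss can be read.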
